A study of Drosophila melanogaster with 6 samples.

Results

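Transposable element insertions were followed by family in T4/T5 neurons, which detect the direction of visual motion in Drosophila melanogaster, after knockdown of the homeobox gene Drgx in larvae. An insertion was any feature of the deposited count table whose annotation symbol holds {}, the mark that separates a family name from the number of the copy, as in roo{}339. Insertions with at least 10 counts summed over the 6 libraries were kept. This rule uses no expression difference, but it was set with earlier results of these data known. This left 1862 of the 5554 insertions in the table, which has 23932 features in all. The 1862 belong to 117 families. Of the other insertions, 2630 had 0 counts in every library and 1062 had 1 to 9.

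In the knockdown group UAS-CD8-GFP stood over UAS-DRGX-IR on 1 chromosome pair and R23G12-Gal4 over a chromosome without a transgene (+) on the next, so that the driver expressed a membrane-bound GFP and an inverted-repeat hairpin against Drgx. In the control group UAS-CD8-GFP stood over + and R23G12-Gal4 over UAS-cherry-IR, a hairpin aimed at cherry, which encodes a fluorescent protein. There were 3 libraries per group, from GFP-positive cells sorted from brains of climbing larvae of the third instar raised at 25 °C. The driver sets which cells were sorted in both groups. The hairpins sat on different chromosomes. The groups differ in the hairpin line as well as in its target, and an insertion that only 1 of the lines carries cannot be told apart from an insertion that is transcribed in only 1 group. Nothing in the labels says that the 3 libraries of a group came from separate cultures, so p-values measure the spread between these libraries, which may be technical.

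Transposable elements are DNA segments that can copy or move themselves within a genome. Retrotransposons do so through an RNA. Those with long terminal repeats (LTR), such as copia, roo and flea, are built like retroviruses, and LINE-like elements, such as Doc, F and HeT-A, lack these repeats. DNA elements, such as Tc1-2 and hobo, move as DNA, and the short INE-1 copies are old remnants of a Helitron-like element. In flies, small RNAs bound by Argonaute proteins silence these elements, through Piwi-class proteins in the gonad and mainly through AGO2 in other tissues. An insertion within an intron also lies inside the unspliced transcript of its host gene. Counts on it can therefore come from either, and copies of a family can be similar in sequence, so that how reads were shared out among them can move single copies. Neither the treatment of such reads nor the use of strand is given in the sources used here, and counts on an insertion are uncertain to that extent.

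Library totals ran from 29587960 to 44054609 counts, and levels are given as CPM, counts scaled to library size. A count of 0 allows up to 3 counts, which is 0.0681 to 0.101 CPM by library and covers counting error only. Drgx had 729, 728.7 and 663.4 CPM in knockdown libraries, against 2110, 2156 and 2160 CPM in control libraries (log2 fold change −1.60, edgeR adjusted p 7.29e-08). Of 9 marker genes of the T4/T5 lineage, 4 passed (edgeR adjusted p under 0.05, as did 6.21% of all features tested), all lower in knockdown, and 7 of the 9 had lower means. The sum over the 9 was 3337 to 3503 CPM in knockdown libraries and 4995 to 5284 CPM in control libraries. Of 9 glial markers, 2 passed, both higher in knockdown, and all 9 had higher means. The sum over these 9 was 818.4 to 886.1 CPM in knockdown and 604.6 to 681.9 CPM in control. The sums of 7 neural progenitor markers, of which 0 passed, were 257.3 to 271.7 CPM in knockdown and 217.9 to 239.5 CPM in control. Of 2 hemocyte markers tested 1 passed, Ppn, with means of 3.33 CPM in knockdown and 0.144 CPM in control. Hemocyte sums were 2.76 to 9.94 CPM in knockdown and 0.967 to 5.75 CPM in control, with NimC1, srp, eater and He at 0. Photoreceptor sums were 10.4 to 21.9 CPM in knockdown and 10.01 to 14.5 CPM in control, with ninaE and trp at 0. Germline sums were 1.60 to 4.10 CPM in knockdown and 0.967 to 2.35 CPM in control, with zpg and osk at 0. The part of these shifts in the results on insertions was not tested, and in bulk samples fewer cells of a type and less RNA per cell cannot be told apart.

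Insertions took a small share of the RNA, and their total did not separate the groups. The 1862 insertions held 0.211%, 0.214% and 0.212% of all counts in knockdown libraries, against 0.202%, 0.218% and 0.237% in control libraries. Their summed level was 2059, 2160 and 2093 CPM in knockdown libraries and 1994, 2209 and 2439 CPM in control libraries, so that the knockdown values lay inside the control range. The means were 2104 ± 51.3 CPM in knockdown and 2214 ± 222.6 CPM in control (SD, n = 3 each; exact two-sided permutation p 0.6). With 3 libraries a side this test cannot go below 0.1.

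The sums of the 3 large classes overlapped between the groups. DNA elements held 46.4% of the insertion counts, in 1004 insertions of 22 families, and averaged 981.5 ± 22.8 CPM in knockdown and 1026 ± 43.2 CPM in control (SD, n = 3 each; exact permutation p 0.2). They had 1007.2, 973.6 and 963.8 CPM in knockdown libraries and 1066.3, 1032.0 and 980.5 CPM in control libraries, so that 2 of the 3 knockdown libraries lay below every control library. LTR elements held 31.7%, in 490 insertions of 56 families, at 668 ± 44.0 CPM in knockdown and 700.8 ± 168.8 CPM in control (SD, n = 3 each; exact permutation p 0.8). LINE-like elements held 21.8%, in 367 insertions of 38 families, at 454.2 ± 23.6 CPM in knockdown and 486.7 ± 97.1 CPM in control (SD, n = 3 each; exact permutation p 0.7). The spread of the LTR and LINE-like sums was wider among control libraries than among knockdown libraries. Without control replicate 3 the difference of the total, knockdown minus control, turned from −110.1 to 2.54 CPM, that of LTR elements from −32.8 to 52.2 CPM and that of LINE-like elements from −32.6 to 18.02 CPM.

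A few families and single copies held most of the counts. INE-1 had the most, with 23.7% of all insertion counts spread over 685 copies, none of which held more than 4.09% of the family. Its summed level was 519.4, 478.7 and 500.7 CPM in knockdown libraries and 557.3, 515.8 and 496.6 CPM in control libraries, which overlap. roo, an LTR element, came next with 21.6%, but 91.2% of that lay on 1 copy, roo{}339. The LINE-like family Rt1b was likewise dominated by Rt1b{}990, with 92.6% of its counts. The families HB, 1360, H (the hobo element), Cr1a, F, FB (foldback), Doc, HeT-A and Tc1 followed in that order. Of these 12 families, HeT-A was the one whose libraries did not overlap between the groups, as the plot of the most abundant families shows. A full separation of 3 libraries from 3 has an exact two-sided permutation p of 0.1. The share of all features that separate is not given here, so 1 of 12 is no measure of change.

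**Figure D1:**
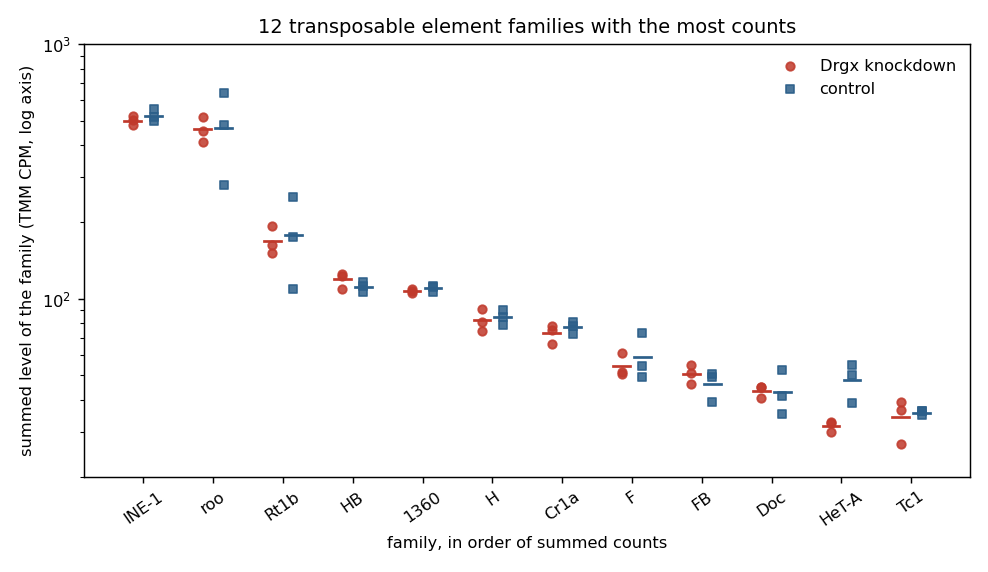
Summed level of the 12 families with the most counts in each library, as CPM scaled with TMM factors on a log axis, with knockdown libraries as circles and control libraries as squares and a line at each group mean. INE-1 lies near 500 CPM in every library, the control libraries of roo spread from 280.6 to 643.3 CPM, and the groups are apart in HeT-A.

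Summed by family, 3 families were lower in knockdown and none was higher. Of the 117 families, 102 passed the filter on low counts and were tested, and 3 (2.94%) had an edgeR adjusted p under 0.05. Over all 9276 rows of the same fit, in which families stand beside genes, 6.81% did (2.3% higher and 4.52% lower). The share among families was thus below that of the table, in a comparison that did not match rows by their counts. The unadjusted p was under 0.05 for 6 families, and the median log2 fold change was −0.02 over families and 0.00 over all features. The families called were Tc1-2, copia and HeT-A.

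**Figure D2:**
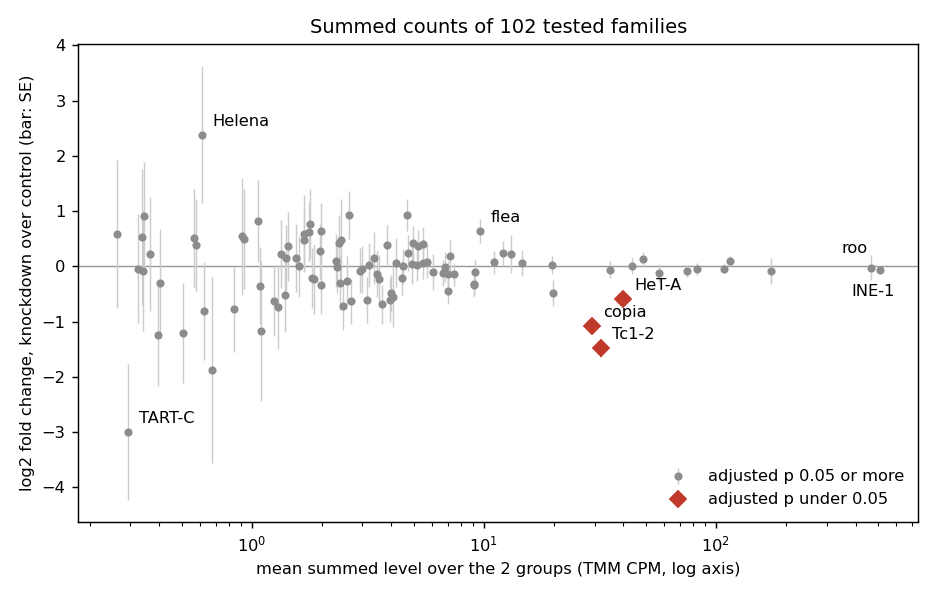
Log2 fold change of each of the 102 tested families, knockdown over control, with its SE, against the mean summed level of the 2 groups on a log axis. Diamonds mark Tc1-2, copia and HeT-A, which had an adjusted p under 0.05, and the low-count families Helena (2.38, adjusted p 0.385) and TART-C (−3.002, adjusted p 0.239), named after their values were seen, lie farthest from 0 without passing.

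Tc1-2, a Tc1-type DNA element, had 16.7, 16.6 and 17.5 CPM in knockdown libraries, against 54.7, 49.6 and 37.5 CPM in control libraries. Every knockdown library was below every control library. Its log2 fold change was −1.48 (SE 0.157, edgeR adjusted p 0.000152). The fall came from 2 of its 14 insertions, both on chromosome 4. The first was Tc1-2{}2836, with 43.8% of the family's counts, at 4.57, 5.65 and 5.67 CPM in knockdown and 26.9, 23.4 and 17.7 CPM in control. The second was Tc1-2{}3905, at 4.29, 4.29 and 4.10 CPM in knockdown and 19.9, 17.2 and 12.5 CPM in control. Without these 2 the family was at −0.12 (adjusted p 0.864), an alternative chosen after seeing the data. Its 3 insertions outside gene spans summed to 1.28 ± 0.670 CPM in knockdown and 1.29 ± 0.345 CPM in control (SD, n = 3 each).

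copia, an LTR element known for abundant RNA in flies, had 18.5, 18.8 and 18.9 CPM in knockdown libraries, against 36.8, 38.7 and 43.6 CPM in control libraries. The groups were far apart relative to their spread, with a log2 fold change of −1.08 (SE 0.128, edgeR adjusted p 0.000336). In contrast to Tc1-2, the fall was counted on copies at several places. Of its 32 insertions, 15 were tested alone, and 11 of these were lower and 4 higher in knockdown. Of the lower ones 4 passed, where 4.11% of all features tested passed with a lower level. How reads were shared out among the copies is not known, so the copies may not be independent. The 15 copies inside gene spans summed to 9.90 ± 0.594 CPM in knockdown and 20.4 ± 1.43 CPM in control (SD, n = 3 each; log2 fold change −1.04, adjusted p 0.0022). The 17 outside summed to 8.86 ± 0.382 CPM in knockdown and 19.3 ± 2.20 CPM in control (SD, n = 3 each; −1.13, adjusted p 0.00192). The call on copia held whichever of the 6 libraries was left out, between −1.14 and −1.01.

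HeT-A, a LINE-like element that adds itself to chromosome ends and maintains fly telomeres, had 29.9, 32.5 and 32.8 CPM in knockdown libraries, against 39.0, 50.1 and 54.7 CPM in control libraries. The groups did not overlap. The log2 fold change was −0.60 (SE 0.143, edgeR adjusted p 0.0312). Leaving out 1 library ended this call in 5 of 6 cases, at adjusted p 0.0648 to 0.1415, and it held without control replicate 1 (0.0102). Of its 11 insertions, 10 lie outside gene spans, on chromosome 4 and at the end of X. HeT-A{}4795 passed alone, and HeT-A{}6278 was at −1.03 (adjusted p 0.113) and HeT-A{}6270 at −1.08 (adjusted p 0.231). HeT-A{}6268, 1 of the 2 copies with the most counts, was at 0.05 (SE 0.238), with 11.5, 8.24 and 13.2 CPM in knockdown and 8.99, 9.82 and 13.1 CPM in control.

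Most insertion RNA lay inside the spans of other genes. Of the 1862 insertions, 1278 (68.6%) overlapped such a span by at least 1 base on either strand, and they held 82.4% of the counts. Among all insertions of the count file the share was 49.8%, and among those below 10 counts 40.3%. Exon bases of another gene were shared by 83 insertions, which held 6.66% of the counts. The share of counts inside gene spans was 82.9%, 83.1% and 82.6% in knockdown libraries and 82.0%, 82.2% and 82.1% in control libraries. The groups did not overlap, and the mean difference, knockdown minus control, was 0.766 percentage points. The exact two-sided permutation p was 0.1, the smallest that 3 libraries against 3 allow.

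When each family was split into copies inside and outside gene spans, 5 of 158 tested sums passed, 1 higher and 4 lower. Over all 9332 rows of that fit 6.75% passed (2.27% higher and 4.48% lower). The 4 lower sums were Tc1-2 inside (−1.56, adjusted p 0.000159), copia inside, copia outside, and HeT-A outside (−0.60, adjusted p 0.0306). The 1 higher sum was that of flea, an LTR element, outside gene spans. It had 4.35, 4.29 and 3.57 CPM in knockdown libraries, against 0.0312, 0.253 and 0.029 CPM in control libraries, a log2 fold change of 5.16 (SE 0.827, edgeR adjusted p 0.00281). The flea copies inside gene spans overlapped between the groups, with 6.98, 6.40 and 9.58 CPM in knockdown and 8.68, 7.31 and 6.18 CPM in control (0.05, SE 0.252). Joined, flea was at 0.64 (adjusted p 0.122), so the family sum did not show the outside copies. When only gene spans on the same strand counted as inside, more flea copies counted as outside and their sum was at 1.52 (adjusted p 0.0523), while Tc1-2 inside was at −0.28 (adjusted p 0.778).

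**Figure D3:**
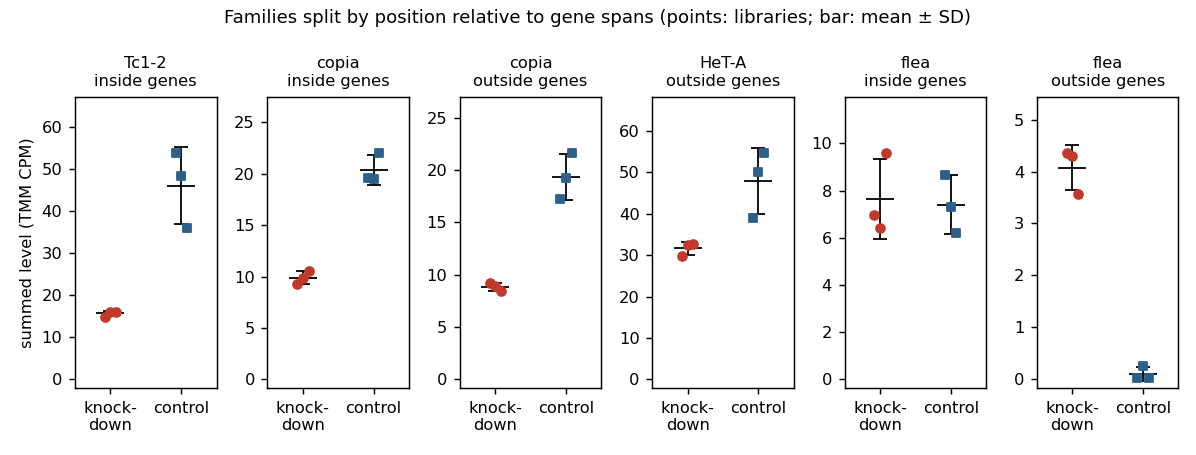
Summed level in CPM, on linear axes, of 4 families split by position relative to gene spans, with 1 point a library and the mean ± SD of each group, knockdown left and control right. copia was lower in knockdown both inside and outside genes, and flea differed outside genes, where 2 of the control libraries were at 0.0312 and 0.029 CPM.

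Tested one by one, 758 insertions passed the filter and were tested, and 19 (2.51%) were called, 5 higher and 14 lower in knockdown. Over all 9932 features tested 6.21% were called (2.1% higher and 4.11% lower), so insertions were called at a lower rate than the table as a whole. Features were not matched by their counts here either. An unadjusted p under 0.05 was seen for 51 insertions. An insertion with counts in 1 group alone had to pass the filter through that group, so the number that passed it is no measure of change. The median log2 fold change was −0.08 over the tested insertions and 0.00 over all features tested. The called insertions fall into 3 sets by their levels. In 10 both groups had counts and the knockdown was lower, in 5 the knockdown had RNA where control libraries had 0 to 4 counts, and in 4 the reverse held. Positions given here are those of BDGP6.54 in Ensembl 115, looked up by identifier. Of the 19, 6 were called in the main setting and in all 13 others tried, namely both Tc1-2 copies, INE-1{}2080, INE-1{}2682, INE-1{}2683 and copia{}920. flea{}877 and 412{}CG33267[iso-1] were called in all 12 other settings in which they were tested, and were not tested where 10 counts were asked of every library.

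**Figure D4:**
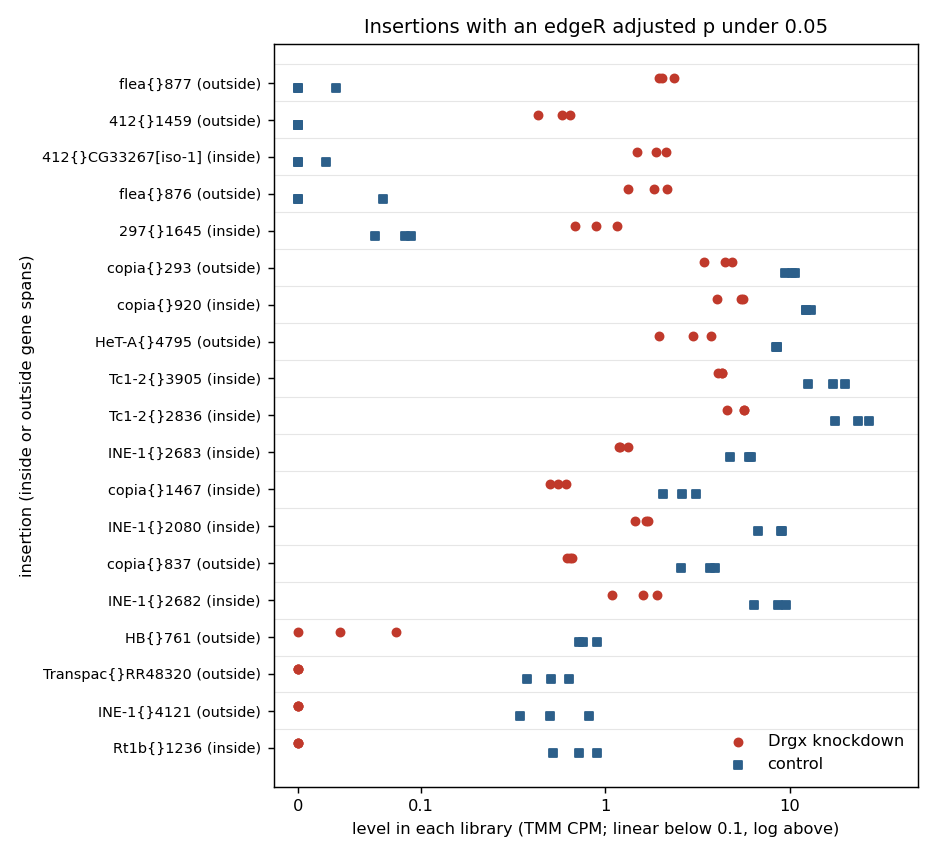
Level in each library of the 19 insertions with an edgeR adjusted p under 0.05, in CPM on an axis that is linear below 0.1 and logarithmic above, with knockdown as circles above control as squares in each row. In the 5 upper rows the control squares lie at or near 0, and in the 4 lowest rows the knockdown circles do.

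The set with counts in both groups began with 4 insertions inside Sox102F, a gene for a SoxD transcription factor of the T4/T5 lineage on chromosome 4. Tc1-2{}2836 (FBti0060897, 4:803697-805316) shares 235 bp of exon with it, on the opposite strand, and had a log2 fold change of −2.10 (SE 0.212, edgeR adjusted p 0.000199). INE-1{}2080 (FBti0060141, 4:803500-803675), INE-1{}2682 (FBti0060743, 4:822711-823177) and INE-1{}2683 (FBti0060744, 4:823383-823439) share no exon bases with it. INE-1{}2080 had 1.67, 1.70 and 1.46 CPM in knockdown libraries and 9.08, 8.97 and 6.73 CPM in control libraries (−2.36, SE 0.294). INE-1{}2682 had 1.91, 1.60 and 1.08 CPM in knockdown and 9.55, 8.65 and 6.42 CPM in control (−2.42, SE 0.339). INE-1{}2683, of 57 bp, had 1.20, 1.19 and 1.32 CPM in knockdown and 6.02, 6.21 and 4.76 CPM in control (−2.19, SE 0.347). The groups did not overlap in these 4, which were picked by their p in the same comparison, so this adds no support. Sox102F itself had 286.3, 256.5 and 287.5 CPM in knockdown and 1199, 1177 and 1073 CPM in control, a log2 fold change of −2.05 (SE 0.0687, edgeR adjusted p 8.89e-08). All 8 tested insertions in its span had negative log2 fold changes, from −3.81 to −1.79. INE-1{}2081, INE-1{}2082 and INE-1{}2682 lie on the strand of the gene and the others opposite to it.

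Tc1-2{}3905 (FBti0061966, 4:968778-970213) lies opposite to fuss, a gene of the Ski/Sno family of transcriptional co-regulators, and shares 343 bp of exon with it. The insertion was lower in knockdown by a log2 fold change of −1.96 (SE 0.224, edgeR adjusted p 0.000442). fuss had 9.45, 5.45 and 5.80 CPM in knockdown libraries and 3.15, 2.83 and 3.80 CPM in control libraries, a log2 fold change of 1.08 that did not pass (SE 0.318, adjusted p 0.0909). Insertion and gene thus stood on opposite sides of 0, unlike at Sox102F. The insertion itself ran close to Tc1-2{}2836 in Sox102F, which was at −2.10. Its control levels, 19.9, 17.2 and 12.5 CPM, fell in the same order as those of Tc1-2{}2836, 26.9, 23.4 and 17.7 CPM. Reads shared between these 2 copies cannot be told apart from a separate change in each.

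The 4 called copia copies are 5142 to 5253 bp long and lie on 4 chromosome arms. copia{}920 (FBti0020031, 3L:3601354-3606606), on the strand of Eip63E, a gene for a cyclin-dependent kinase, had 4.01, 5.62 and 5.45 CPM in knockdown libraries and 12.3, 12.3 and 13.1 CPM in control libraries (−1.32, SE 0.215, adjusted p 0.0043). Eip63E itself was at 0.12 (adjusted p 0.608). copia{}293 (FBti0019110, 2L:2294097-2299243), which lies 860 bp from CG31949, had 4.48, 3.44 and 4.90 CPM in knockdown and 9.49, 10.3 and 10.7 CPM in control (−1.25, SE 0.232, adjusted p 0.00997). CG31949 had 0 counts in all 6 libraries. copia{}837 (FBti0018968, 2R:16539693-16544843), 2607 bp from loopin-1, which also had no counts, was at 0.642 ± 0.0226 CPM in knockdown and 3.40 ± 0.713 CPM in control (SD, n = 3 each; −2.40, SE 0.467, edgeR adjusted p 0.0126). copia{}1467 (FBti0019469, 3R:31413145-31418286), opposite to Gprk2, a gene for a G protein-coupled receptor kinase, was at 0.557 ± 0.0551 CPM in knockdown and 2.59 ± 0.515 CPM in control (SD, n = 3 each; −2.21, SE 0.522, edgeR adjusted p 0.0344). That call was lost with limma-voom (0.0549), with no filter (0.0566) and whichever library was left out (0.0519 to 0.126). copia{}293 and copia{}837 were each lost without control replicate 2 (0.0526 and 0.0695) and without control replicate 3 (0.0545 and 0.0645). The other copies were not uniform, since copia{}631 in Nipped-A was at 0.66 (adjusted p 0.66) and copia{}399 in CadN2 at 0.75 (adjusted p 0.762).

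HeT-A{}4795 (FBti0062856, X:109756-114008) lies near the left end of the X chromosome, 8485 bp from lncRNA:CR40469. It had 1.95, 2.997 and 3.73 CPM in knockdown libraries and 8.46, 8.55 and 8.53 CPM in control libraries (log2 fold change −1.56, SE 0.298, adjusted p 0.0116). The SD of the control libraries was 0.0509 CPM. Without control replicate 2 the adjusted p was 0.0526.

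In the second set, knockdown libraries held RNA of insertions that control libraries almost lacked. flea{}877 (FBti0018964, 2R:23402664-23407682), 355 bp from CG3520, had 66, 69 and 74 counts in knockdown libraries against 1, 0 and 0 in control libraries. Scaled for depth this is a ratio of 231 (95% exact interval 41.0 to 9165, counting error only; edgeR adjusted p 0.00175). flea{}876 (FBti0018963, 2R:22958835-22963863) had 70, 54 and 50 counts in knockdown against 0, 3 and 0 in control, a ratio of 64.1 (21.6 to 313.8; adjusted p 0.0102, and 0.051 without knockdown replicate 1). These 2 copies, of 5019 and 5029 bp, make up the difference of flea outside gene spans. CG3520, the gene next to flea{}877, did not follow, with 24.8 ± 1.99 CPM in knockdown and 22.5 ± 3.98 CPM in control (SD, n = 3 each).

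The LTR family 412 gave a second pair. 412{}CG33267[iso-1] (FBti0020094, 3L:11564836-11572403), inside CG33267 on the same strand, had 48, 63 and 71 counts in knockdown libraries against 0, 1 and 0 in control libraries. The ratio was 201.1 (35.7 to 7987; adjusted p 0.00185), while CG33267 was at 0.18 (adjusted p 0.926). 412{}1459 (FBti0019462, 3R:30375594-30383161), 2412 bp from the ferritin gene Fer1HCH, had 14, 19 and 22 counts in knockdown against 0 in every control library. This is at least 20.3-fold higher, taken against 3 counts over the control group (adjusted p 0.0204). Both are 7568 bp long. The family as a whole was at 0.39 (adjusted p 0.697), at 3.09, 4.46 and 5.53 CPM in knockdown and 3.40, 3.38 and 3.19 CPM in control. The fifth of this set was 297{}1645 (FBti0059706, 3R:8898276-8906382), an LTR copy opposite to pyd, which encodes a junction scaffold protein. It had 29, 34 and 26 counts in knockdown against 2, 4 and 3 in control, a ratio of 10.9 (5.50 to 24.7; adjusted p 0.0357, but 0.144 with limma-voom and 0.0898 with no filter), while pyd itself was lower in knockdown by −0.87 (adjusted p 9.97e-06).

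In the third set, knockdown libraries had almost no counts. Rt1b{}1236 (FBti0019318, 3R:6416814-6419064), on the strand of gpp, a gene for a histone methyltransferase, had 0 counts in every knockdown library against 23, 39 and 18 in control libraries, at least 24.1-fold lower (adjusted p 0.0153). gpp was at −0.21 (adjusted p 0.338). INE-1{}4121 (FBti0062182, 3L:23289136-23289532) had 0 counts in knockdown against 16, 15 and 28 in control, at least 17.8-fold lower (adjusted p 0.0256). It lies 1688 bp from nAChRalpha4, which was at −0.26 (adjusted p 0.3). Transpac{}RR48320 (2R:1500905-1506153), an LTR copy, had 0 counts in knockdown against 12, 22 and 22 in control, at least 16.9-fold lower (adjusted p 0.0254). HB{}761 (FBti0019973, 2R:6989128-6990760) had 0, 1 and 3 counts in knockdown against 23, 39 and 26 in control (adjusted p 0.0474, but 0.0792 with limma-voom and 0.0881 with no filter), so that control exceeded knockdown 19.9-fold (7.51 to 74.7). These calls rest on few counts. 412{}1459, 297{}1645, INE-1{}4121, Transpac{}RR48320 and HB{}761 lost theirs whichever library was left out (adjusted p 0.0723 to 0.21), and Rt1b{}1236 in 5 of 6 such fits.

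Length and position of the called insertions were set beside those of the tested ones. Of the 19, 11 were at least 4000 bp, against 160 of the 758 tested. Put the other way, 11 of the 160 tested insertions of this length were called, a share close to the 6.21% over all features tested. Several of the 11 are copies of the same family, which may share reads, so they are not independent. The median length of the 1862 insertions was 556.5 bp, against 343 bp among all in the table. Outside gene spans 9 of 174 tested were called (5.17%), and inside 10 of 584 (1.71%). Both shares lay below the 6.21% called over all features tested.

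Insertions inside genes were then read beside the protein-coding genes that hold them, from the same fit. There were 567 such pairs of a tested insertion and a tested gene, over 231 genes, and insertion and gene had the same sign in 338 (59.6%). Across these pairs, which share libraries and in part reads and are not independent, Pearson's r was 0.22 and Spearman's rho 0.25. In 86 pairs, of 46 genes, the gene was called. Signs matched in 59 of them (68.6%), and in 51 of 78 (65.4%) without Sox102F. Where the gene was not called, they matched in 279 of 481 pairs (58.0%). Pearson's r was 0.403 in pairs with a called gene, 0.225 in these without Sox102F, and 0.056 where the gene was not called. Spearman's rho was 0.404, 0.23 and 0.184 in the same order. Among the called genes with the most insertions, signs matched in all 10 pairs of nrm, all 8 of Sox102F and all 5 of nrv3. In Syt7 they matched in 3 of 8. The share called was 2.51% over all tested insertions and 6.21% over all features tested. Of the 86 insertions in called genes, 5 were themselves called, 4 in Sox102F and 297{}1645 in pyd, whose sign was opposite. Among these 86, signs matched in 29 of 39 pairs on the same strand (74.4%) and in 30 of 47 on opposite strands (63.8%). Over all 567 pairs the order was the other way, with 176 of 306 (57.5%) on the same strand and 162 of 261 (62.1%) on opposite strands. These counts were made with the fold changes at hand and describe the pairs.

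**Figure D5:**
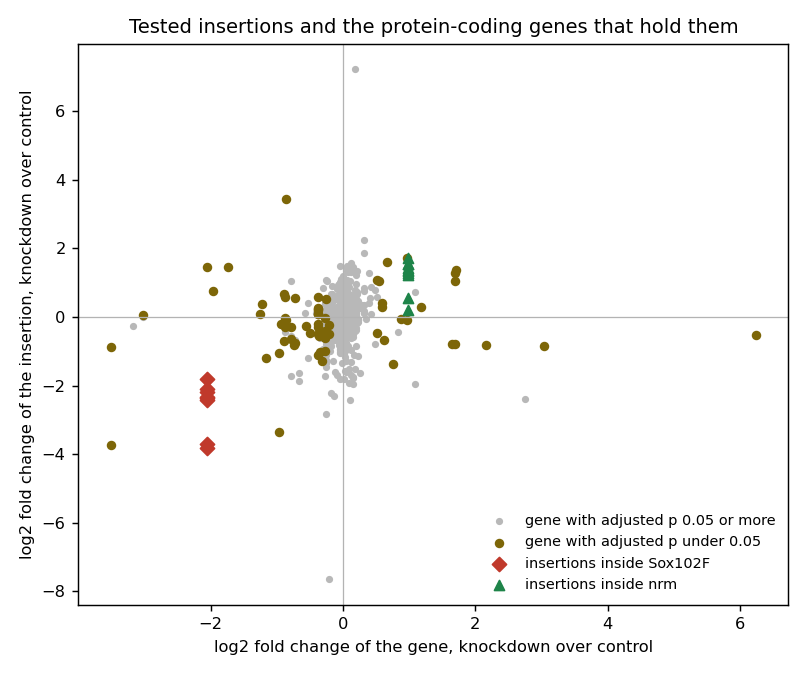
Log2 fold change of each tested insertion inside a protein-coding gene, on the vertical axis, against that of the gene, both knockdown over control, for 567 pairs. Diamonds mark the 8 insertions in Sox102F, all lower with the gene, and triangles the 10 in nrm, all above 0 with the gene.

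nrm, which encodes an immunoglobulin-type adhesion protein, held the most insertions of any called gene. The gene was at 183.4 ± 10.8 CPM in knockdown and 92.4 ± 4.75 CPM in control (SD, n = 3 each; log2 fold change 0.99, edgeR adjusted p 4.31e-05). Its 10 tested insertions, from 6 families, ran from 0.20 to 1.71, and none of them passed. INE-1{}3224 had 2.25, 4.12 and 4.08 CPM in knockdown libraries and 1.31, 1.61 and 1.10 CPM in control libraries (1.37, adjusted p 0.128), with no overlap. INE-1{}3227 had 3.12, 3.47 and 3.47 CPM in knockdown and 0.749, 1.82 and 1.19 CPM in control (1.41, adjusted p 0.138), again with no overlap. Cr1a{}1596, the copy in nrm with the most counts, did overlap. It had 6.79, 5.38 and 11.25 CPM in knockdown and 6.80, 5.61 and 3.425 CPM in control (0.57, adjusted p 0.504). The libraries of flea{}3297 (0.20) and INE-1{}3211 (1.34) overlapped as well. The 5 insertions in nrv3, a gene for a sodium pump subunit that was lower by −0.27 (adjusted p 0.0355), were all below 0, from −0.98 to −0.03, and none passed. The 8 in Syt7, a synaptotagmin gene at −0.38 (adjusted p 0.0073), were on both sides of 0.

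In other genes with large changes the insertion stayed apart from the gene, and these pairs were chosen after their values were seen. H{}84, a hobo copy opposite to nAChRalpha3, a nicotinic receptor subunit gene, had 31.3, 29.97 and 31.6 CPM in knockdown libraries and 31.0, 31.1 and 26.2 CPM in control libraries (0.07, SE 0.126). The gene had 1.42, 5.18 and 2.12 CPM in knockdown and 18.9, 26.9 and 24.2 CPM in control (−3.02, SE 0.417, adjusted p 0.00151). The libraries of the copy overlapped between the groups, and those of the gene did not. INE-1{}5109, on the strand of DIP-eta, a gene for an immunoglobulin surface protein, was at −0.81 (SE 0.802, adjusted p 0.729) while that gene rose by 2.16. 3S18{}853 had 4.41, 3.58 and 3.76 CPM in knockdown and 1.12, 1.77 and 1.36 CPM in control (1.46, SE 0.398, adjusted p 0.0681), while GEFmeso, a guanine nucleotide exchange factor gene on the other strand, fell by 1.73.

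The 8 insertions with the most counts held 35.9% of all insertion counts, and none of them was called. roo{}339 (FBti0019148, 2L:10946999-10956155) had 373.6, 481.7 and 419.4 CPM in knockdown libraries and 241.0, 438.4 and 591.3 CPM in control libraries. The log2 fold change was 0.00 (SE 0.254), and the control libraries alone spanned the knockdown ones. It lies opposite to dpr2, whose own level was 0.9 ± 1.04 CPM in knockdown and 7.33 ± 3.69 CPM in control (SD, n = 3 each). That difference did not pass (−3.02, SE 0.985, edgeR adjusted p 0.13), and knockdown replicate 2 had 0 counts of dpr2. Rt1b{}990 (FBti0020101, 3L:13574910-13580104), opposite to bru3, an RNA-binding protein gene, had 136.6, 181.8 and 152.7 CPM in knockdown and 95.8, 156.8 and 239.1 CPM in control (−0.06, SE 0.264). bru3 was higher in knockdown by 0.87 (adjusted p 0.00211).

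F{}1384 (FBti0019398, 3R:18606587-18610732), within the spans of qin and CG14304, had 25.4, 35.9 and 24.3 CPM in knockdown libraries and 17.5, 30.2 and 49.5 CPM in control libraries. Doc{}1407 (FBti0019417, 3R:22881256-22884895), 14389 bp from klg, had 21.2, 25.7 and 24.8 CPM in knockdown and 15.6, 24.7 and 33.0 CPM in control. Cr1a{}2411 (FBti0060472, 3L:23716824-23720346), 135 bp from Spf30, had 28.99, 27.6 and 31.3 CPM in knockdown and 26.96, 36.8 and 42.6 CPM in control (−0.27). In roo{}339, Rt1b{}990, F{}1384, Doc{}1407 and Cr1a{}2411 alike, control replicate 1 was the lowest of the 6 libraries and control replicate 3 the highest. The noncoding genes lncRNA:CR43685 and lncRNA:CR40469, picked with their values in view, had the same extremes. lncRNA:CR43685 had 10.2, 10.9 and 8.29 CPM in knockdown and 4.34, 8.81 and 14.7 CPM in control. lncRNA:CR40469 had 747.3, 854.2 and 648.9 CPM in knockdown and 531.3, 703.7 and 1020.8 CPM in control. The number of features in the whole table with these extremes is not given here. What these features share across the control libraries was not tested.

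The other 3 did not have both of these extremes. HB{}248 (FBti0019720, X:22458695-22460157), on the strand of Usp2, a ubiquitin protease gene, had 51.0, 63.2 and 49.2 CPM in knockdown libraries and 37.1, 48.6 and 45.1 CPM in control libraries. Its groups did not overlap, and the log2 fold change of 0.32 did not pass (SE 0.143, adjusted p 0.306). H{}1737 (FBti0059798, 3R:7091156-7091591) averaged 22.7 ± 5.23 CPM in knockdown and 23.7 ± 1.96 CPM in control (SD, n = 3 each; −0.07). H{}84 was described with its host gene.

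Insertions with counts were unevenly spread over the chromosomes. On chromosome 4, a small chromosome rich in repeats, 297 of 565 insertions (52.6%) had at least 10 counts, against 24.1% on X, 27.1% on 2L, 33.8% on 3R, 34.0% on 3L and 35.7% on 2R. Those 297 held 22.9% of all insertion counts, and 241 of them lie inside gene spans. Of the insertions inside a protein-coding gene, 618 lay on the strand of the gene and 589 on the opposite strand, and 34 lay in genes of both kinds. The median number of summed counts was 58 on the same strand and 49 on the opposite strand, while the insertions on the same strand summed to 130810 counts and those on the opposite strand, roo{}339 among them, to 230292.

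The genes that silence transposable elements were read as a list of 53 genes of the Piwi, small interfering RNA and heterochromatin pathways. Of these, 52 were found in the table and 43 were tested. Of those 43, 1 passed over all genes, at 2.33%, against 6.21% of all features tested, and 6 had an unadjusted p under 0.05. It was Gasz, whose product anchors Piwi-pathway proteins on mitochondria. It had 4.79, 4.29 and 5.11 CPM in knockdown libraries and 11.7, 8.58 and 8.53 CPM in control libraries, without overlap (log2 fold change −1.02, SE 0.235, edgeR adjusted p 0.0313). That call was lost whichever library was left out (adjusted p 0.0719 to 0.13). In 2 of those fits another gene of the list passed, AGO1 without knockdown replicate 2 (−0.25, adjusted p 0.0299) and ctp without control replicate 1 (−0.28, adjusted p 0.0348). The median log2 fold change of the tested list was 0.03.

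Several Piwi-pathway genes had low levels in both groups, and 14 of the list had a control mean under 1 CPM. piwi averaged 0.782 ± 0.705 CPM in knockdown and 0.695 ± 0.414 CPM in control (SD, n = 3 each). aub, a germline Argonaute, had 2.99, 1.60 and 1.48 CPM in knockdown and 0.655, 0.805 and 0.464 CPM in control (1.65, adjusted p 0.185), and rhi, which marks germline piRNA clusters, had 0 counts in every library. The genes of the small interfering RNA pathway were well covered. AGO2 was at 159.2 ± 15.8 CPM in knockdown and 141.7 ± 8.26 CPM in control (SD, n = 3 each; 0.17, edgeR adjusted p 0.433). Dcr-2, which cuts double-stranded RNA, was at 86.3 ± 11.1 CPM in knockdown and 92.3 ± 5.80 CPM in control (SD, n = 3 each; −0.10, adjusted p 0.777). The gene of heterochromatin protein HP1a was at 656.2 ± 20.4 CPM in knockdown and 624.5 ± 43.5 CPM in control (SD, n = 3 each; 0.07, adjusted p 0.682).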

How the data were processed

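RNA was measured by RNA sequencing of sorted T4/T5 neurons, in 3 Drgx knockdown and 3 control libraries made with SMART-Seq v4, per the labels' protocols. The authors deposited 1 table of raw counts per feature, with whole numbers and different totals per library. STAR, DESeq2 and BDGP6 are named in the submitters' processing notes, without versions, and the counting program, its use of strand and its treatment of reads that match several copies are not given in the sources used here. Counts reach 29587960 to 44054609 per library, and counting error sets a limit of 3 counts for a feature at 0. SMART-Seq reads carry no molecular tags, so intervals and limits cover counting error only.

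Identifiers were matched to Ensembl 115 (BDGP6.54): 23851 of 23932 features matched, and the other 81 carried between 0.273% and 0.294% of a library's counts. Features were filtered with filterByExpr (minimum 10 counts), scaled with TMM and tested with edgeR 4.0.16's quasi-likelihood F test in R 4.3.3, on a design of group alone, with Benjamini-Hochberg adjustment over all rows tested, at a threshold of 0.05. The same test was run with insertions summed by family, and by family and position. The SE of a log2 fold change is its size over the root of its F statistic. Levels are CPM with TMM scaling. The fits were run on simulated counts with the same spread for every feature, set below that of these data. The common biological coefficient of variation of the data was 0.304, so the simulation does not show how the fits do at that spread.

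Named are all called insertions and families, the 12 families and 8 insertions with the most counts, their host genes, called silencing genes and Drgx, and any others were picked with their values in view. The members, lists and tests were chosen with earlier results of these data known. Classes of families were assigned from general knowledge. No sequences of insertions are printed. Alternatives were DESeq2's size factors, library size only, no filter, a minimum of 10 counts in each library, limma-voom (limma 3.58.1), DESeq2 1.42.0, the replicate number as a block, leaving out each library, other member rules and, chosen after seeing the data, families without their 2 most counted insertions.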

Additional observations from a re-analysis of the deposited data

How the results depend on the processing

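Of the 19 insertion calls, all 19 remained with DESeq2's size factors and with library size only, and among 23 calls of DESeq2; 16 were shared with limma-voom. The total was 12, with 1 higher, at 10 or more counts in every library, where fewer insertions were tested. Leaving out 1 library gave 9 to 16 calls, 2 to 3 higher and 6 to 13 lower. The replicate numbers share only a number, since same-numbered libraries deviated with correlations of 0.0557, −0.0118 and −0.03, and with them as a block 12 insertions were called (3 higher, 9 lower), all among the 19, and the same number of families. The 7 lost with the block were Rt1b{}1236, 412{}1459, Transpac{}RR48320, INE-1{}4121, copia{}1467, 297{}1645 and HB{}761, at adjusted p 0.0901 to 0.128, and Gasz was at 0.0668. Families called higher became 1 with outside insertions only and 1 without the 2 most counted insertions. Tc1-2 was also at −0.11 without insertions that share exon bases. Sums by position called higher, flea outside in the main setting, became 0 at 10 or more counts in every library and 0 when only gene spans on the same strand counted as inside. Silencing genes called became 2 (1 higher) at 10 or more counts in every library, 3 with DESeq2 (1 higher, 2 lower), 2 with limma-voom (both lower, 2), 0 with the block (0 lower) and 0 to 1 without 1 library.

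No called insertion or family changed direction in any setting. Uncalled values near 0 did, and the cause was not tested. Rt1b{}990 was at 0.0095 with limma-voom and 0.0257 with the block, Doc{}1407 at 0.0113 and 0.0234, and the roo family at 0.0338 and 0.0513, and 0.0131 with library size only. Without the most counted insertion HB was at −0.076, Cr1a at 0.0636, FB at −0.0697 and Tc1 at 0.00137. Without the first 2, HB was at −0.0315, FB at −0.233 and Tc1 at 0.229. Outside gene spans HB was at −0.298, 1360 at 0.108 and FB at −0.161, and without exon-sharing copies FB was at −0.0676 and Doc at −0.0163. Leaving out 1 library gave −0.278 to 0.32 for roo{}339, −0.335 to 0.311 for Rt1b{}990, −0.483 to 0.255 for F{}1384, −0.00632 to 0.114 for H{}84, −0.273 to 0.24 for Doc{}1407 and −0.273 to 0.0483 for H{}1737. For families it gave −0.286 to 0.274 for roo, −0.334 to 0.248 for Rt1b, −0.133 to 0.0198 for H, −0.233 to 0.066 for F, −0.116 to 0.177 for Doc and −0.175 to 0.0843 for Tc1. Knockdown minus control was −220.0 to 2.54 CPM for the total, −116.7 to 52.2 for LTR and −78.8 to 18.02 for LINE-like elements. Depth limits single copies, since 1104 of the 1862 insertions had too few counts to be tested.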
